A study of Mus musculus with 2 samples.

Results

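The transcripts described here are the 10 genes *Ifng*, *Ifngr1*, *Ifngr2*, *Il12rb2*, *Il27ra*, *Il4*, *Il5*, *Il13*, *Il4ra* and *Il1rl1*, taken by gene symbol from the 23282 gene rows of the count tables. They encode 4 cytokines and 6 receptor chains of the Th1 and Th2 programmes. Both libraries were made from naïve CD4 T cells of *Fak* fl/fl mice, 6 to 8 weeks old. One library came from cells transduced with an empty control retrovirus (control) and the other from cells transduced with a retrovirus carrying Cre recombinase (RV-Cre), which removes the floxed part of *Fak*. Antibodies to CD3ε (10 μg/ml, coated on the plate) and CD28 (5 μg/ml, in solution) stimulated the cells, which grew in Th17-polarizing medium for 3 days before GFP+ cells were sorted. The medium held IL-6 (50 ng/ml), TGFβ1 (1 ng/ml), TNFα (1 ng/ml), IL-1β (2 ng/ml) and antibodies against IFNγ and IL-4 (5 μg/ml each). For the control library the labels are at odds, with WT given as the genotype and *Fak* fl/fl in the title, and the title was followed. RNA was sequenced by QuantSeq, which reads tags near the 3′ end of transcripts. With 1 library per condition, differences cannot be set against a spread between replicates and p-values are left out. Cells with Cre but intact *Fak* are not analysed here, so the presence of Cre and the loss of *Fak* cannot be told apart. The number of mice behind each library is not given in the sources used here.

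Th1 cells make IFNγ, and Th2 cells make IL-4, IL-5 and IL-13. IL-12 and IFNγ favour the Th1 fate through factors such as STAT4 and T-bet (encoded by *Tbx21*), IL-4 favours the Th2 fate through STAT6 and GATA3, and both cytokines IFNγ and IL-4 restrain the Th17 fate. Antibodies that bind IFNγ and IL-4 are therefore added to Th17 cultures. They act on the secreted proteins, and the cells can still transcribe the cytokine genes and their receptors.

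Counted reads totalled 13799264 for control and 12305010 for RV-Cre. Where a pair of read counts is given, that of the control library comes first. CPM values are the reads of a gene scaled to the library total. Ratios are RV-Cre over control after TMM scaling, with an exact 95% interval that covers counting error only and compares the libraries, not the conditions. *Ptk2*, the symbol of *Fak*, had 110 reads in control and 31 in RV-Cre cells, a ratio of 0.318 (95% interval 0.206 to 0.477), and since 3′ tags need not lie in the deleted part of the gene this value is no direct check of the deletion. The ribosomal RNA gene *Rn45s* took 8.5% of control reads and 14.6% of RV-Cre reads. The 8 CD4 T cell markers listed had 713 to 7475 reads each, of which *Cd3d* and *Cd3e* were higher with RV-Cre by 2-fold or more, while *Cd5* had 3800 and 1696 reads (ratio 0.504, 95% interval 0.475 to 0.533) and *Cd4* itself 1489 and 1342.

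The 2 cytokines with more than a trace of reads were lower in the RV-Cre library, whereas the receptors with the most reads were higher. *Ifng* and *Il13* were at least 2-fold lower, *Ifngr1* was at least 2-fold higher, and *Ifngr2* and *Il4ra* were higher by less than 2-fold but beyond counting error. *Il12rb2*, *Il27ra* and *Il1rl1* had ratios whose intervals include 1, and *Il4* and *Il5* had no more than 1 read in any library. In bulk samples such as these, fewer cells of a type and less RNA per cell cannot be told apart. A gene was counted as higher or lower when its log2(normalized count + 1) differed by 1 or more and was 4 or more (15 normalized reads) in either library. Of the 10 genes, 8 passed this minimum, *Il13* through the control library alone and *Il12rb2* likewise. Of these 8 genes, 1 was higher and 2 were lower, beside 14.2% higher and 12.3% lower among the 12112 genes past the minimum. These counts are too few to set the group apart from the background, and what follows describes single genes. The background depended on the level of a gene. From genes with a mean log2 value under 4, through the bands 4 to 6, 6 to 8 and 8 to 10, to those at 10 or more, 65.5%, 28.8%, 9.48%, 4.05% and 3.28% were at least 2-fold higher. The shares at least 2-fold lower in the same bands were 22.4%, 19.0%, 14.5%, 8.60% and 6.07%. Genes in the band under 4 passed only where 1 library reached the minimum and the other lay below it. The shares of that band are thus partly set by the minimum. The interval lay above 1 for 3 of the 8 genes that passed and below 1 for 2 of them, beside 36.7% and 38.1% of all genes past the minimum.

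**Figure D1:**
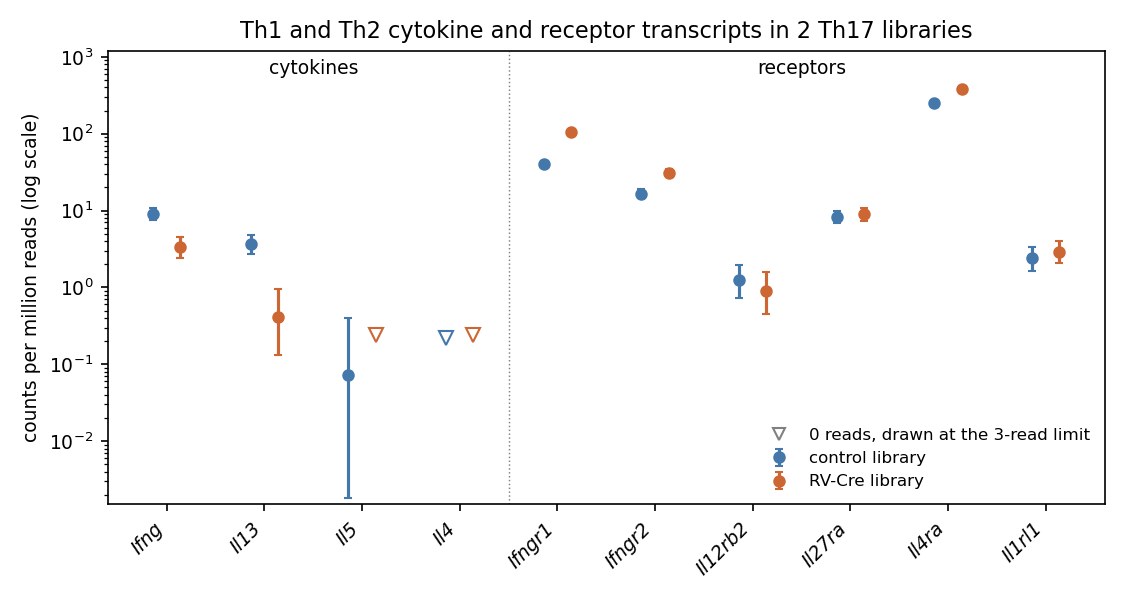
CPM (log scale) of the 10 transcripts in the control and RV-Cre libraries. Points are single libraries, bars are exact 95% counting intervals and open triangles mark 0 reads, drawn at the limit of 3 reads. *Ifng* and *Il13* lie lower, and *Ifngr1*, *Ifngr2* and *Il4ra* higher, in the RV-Cre library.

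Among the cytokines, *Ifng* (chr10:118441046-118445894, plus strand, GRCm38) encodes IFNγ, the signature cytokine of Th1 cells. It had 126 reads in the control library, or 9.13 CPM (95% interval 7.61 to 10.9), and 41 reads in the RV-Cre library, or 3.33 CPM (95% interval 2.39 to 4.52). The level was thus lower in the RV-Cre library, and the intervals of the libraries did not overlap. The normalized ratio was 0.367 (95% interval 0.252 to 0.526), a decrease of 2.72-fold, with a log2 ratio of -1.42. In the band from 6 to 8, which holds 2858 genes, 7.56% were as low or lower. *Il13* (chr11:53631323-53634702, minus strand) encodes IL-13, a Th2 cytokine that acts on epithelium and macrophages. It had 50 reads in the control library, or 3.62 CPM (95% interval 2.69 to 4.78), and 5 reads in the RV-Cre library, or 0.406 CPM (95% interval 0.132 to 0.948). The ratio was 0.113 (95% interval 0.0351 to 0.281), the largest difference among the 8 genes with a ratio and also the one with the fewest reads behind the lower value. Its log2 ratio of -2.93 was reached or passed downward by 1.54% of the 2008 genes of the band from 4 to 6. *Il13* depends on the control library to pass the expression minimum.

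*Il4* (chr11:53612460-53618665, minus strand) encodes the cytokine that drives Th2 differentiation. It had 0 control reads and 0 RV-Cre reads, for which a one-sided limit of 3 reads corresponds to 0.217 and 0.244 CPM. *Il5* (chr11:53720794-53725103, plus strand), which encodes the Th2 cytokine that acts on eosinophils, had 1 read in control cells and 0 in RV-Cre cells. A change in *Il4* or *Il5* was not detectable at this depth, and no ratio is given. Of all 23282 rows, 32.2% had 0 reads in both libraries. The differences in *Ifng* and *Il13* were unequal. There were 2.52 reads of *Ifng* for each read of *Il13* in control cells and 8.2 in RV-Cre cells, a change of 3.25-fold (exact 95% interval 1.18 to 11.1) that does not depend on the scaling of the libraries.

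The start sites of the 4 cytokine genes are shown because GATA3 and T-bet act on these genes and the transcripts of both factors differed between the libraries, as given below. Each line gives the 250 bases before the annotated gene start, 5′ to 3′ on the strand of the gene, from RefSeq (GRCm38.p6). Capitals mark a GATA motif, which was searched on either strand as AGATAA with T also allowed in the first place and G in the last.
Ifng, chr10:118440796-118441045, plus strand: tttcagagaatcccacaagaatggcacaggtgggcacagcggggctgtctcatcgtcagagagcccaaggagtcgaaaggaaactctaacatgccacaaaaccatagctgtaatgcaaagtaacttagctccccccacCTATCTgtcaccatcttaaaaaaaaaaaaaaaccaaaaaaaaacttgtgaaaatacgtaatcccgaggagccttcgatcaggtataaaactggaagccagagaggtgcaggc
Il13, chr11:53634703-53634952, minus strand: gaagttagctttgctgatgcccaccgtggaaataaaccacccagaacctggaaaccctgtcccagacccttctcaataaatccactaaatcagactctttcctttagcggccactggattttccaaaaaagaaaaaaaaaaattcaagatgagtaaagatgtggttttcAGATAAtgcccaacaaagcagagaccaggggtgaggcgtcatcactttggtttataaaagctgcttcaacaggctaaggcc
Il4, chr11:53618666-53618915, minus strand: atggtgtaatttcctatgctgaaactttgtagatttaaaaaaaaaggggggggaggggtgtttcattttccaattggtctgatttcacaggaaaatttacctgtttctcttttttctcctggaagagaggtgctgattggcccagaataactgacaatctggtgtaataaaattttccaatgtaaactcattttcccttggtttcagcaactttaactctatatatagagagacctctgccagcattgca
Il5, chr11:53720544-53720793, plus strand: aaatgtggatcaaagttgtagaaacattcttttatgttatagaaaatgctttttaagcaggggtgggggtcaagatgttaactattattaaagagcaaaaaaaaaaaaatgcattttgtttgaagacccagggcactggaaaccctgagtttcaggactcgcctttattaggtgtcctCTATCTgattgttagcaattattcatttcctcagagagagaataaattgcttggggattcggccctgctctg

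The GATA letters began 112 bases before the start of *Ifng*, 81 bases before that of *Il13* and 72 bases before that of *Il5*. In *Il4* the window of 300 bases (250 before and 50 after the start) held them only from the base at position 15 after the start, which is not printed. Of the 7 genes with a window at the annotated gene start, these 4 cytokine genes held a GATA motif and *Ifngr1*, *Ifngr2* and *Il4ra* did not. The receptor gene *Il1rl1* had windows only away from its annotated start, and these held GATA motifs as well. The window of *Il12rb2*, also away from the gene start, held none, and *Il27ra* had no window. Windows away from a gene start are not like those at one. With 7 genes, whether the motif divides the cytokine genes from the receptor genes cannot be told. Among all 32851 RefSeq windows of this length, 29.8% held a GATA motif. The NFAT motif TGGAAA, on either strand, was in the gene-start windows of *Il4*, *Il5* and *Il13* and in 21.4% of all windows. A STAT motif (TTC and GAA with 3 or 4 bases between) was in those of *Ifng*, *Il4* and *Ifngr2* and in 14.6% of all windows. T-box (AGGTGTGA or AGGTGTTA), AP-1 (TGACTCA) and Ets (CAGGAAGT) motifs were found in 0 of the 7 windows and in 1.69%, 5.2% and 3.33% of all windows, again on either strand. None of these matches overlapped another. Such matches are a description of letters, and binding was not measured in these data.

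*Il4*, *Il13* and *Il5* lie in a cluster on chromosome 11, with *Kif3a* and *Irf1* at its sides and *Rad50*, which carries the known locus control region of the cluster, between *Il13* and *Il5*. *Kif3a*, a kinesin motor subunit, had 464 reads in control and 314 in RV-Cre cells, a ratio of 0.764 (95% interval 0.66 to 0.883). *Rad50*, a DNA repair gene whose start lies 72.6 kb from that of *Il13*, had 2179 and 1382 reads and a ratio of 0.716 (95% interval 0.669 to 0.766). *Irf1*, an interferon-induced transcription factor whose start lies 135 kb away, had 4347 and 2532 reads and a ratio of 0.657 (95% interval 0.626 to 0.69). All 3 of these neighbours were lower by less than 2-fold, and the upper bound of *Il13*, 0.281, lay below their lower bounds. Next to *Ifng*, *Il22*, a cytokine of Th17 cells, had 63 and 56 reads and a ratio of 1.00 (95% interval 0.687 to 1.46). *Mdm1*, whose start lies 300 kb from that of *Ifng*, had 101 and 20 reads and a log2 ratio of -2.11.

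**Figure D2:**
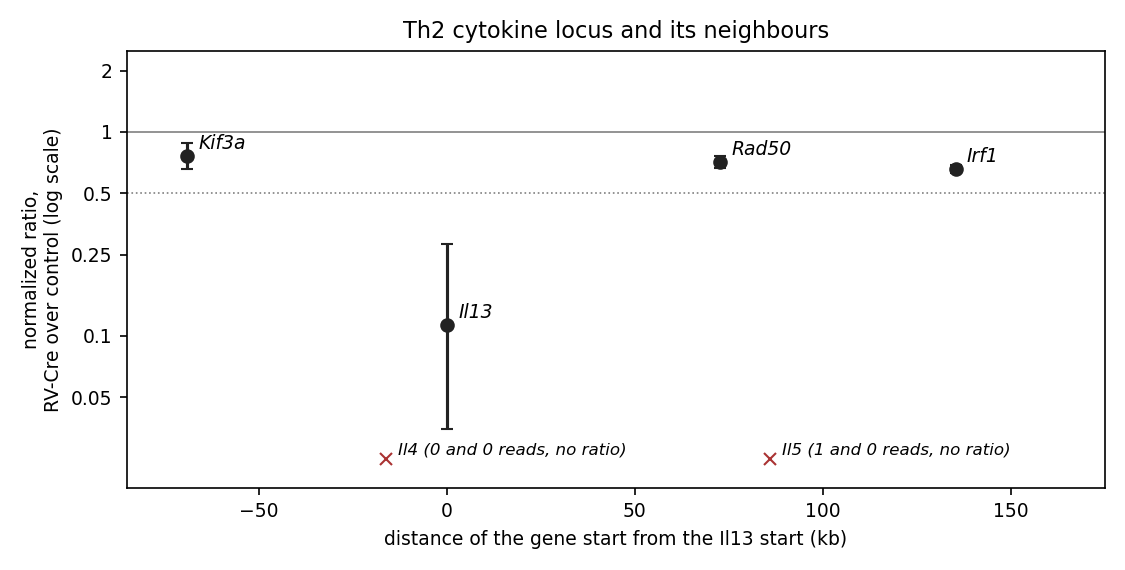
Normalized ratio of RV-Cre over control (log scale) for genes of the Th2 cytokine locus against the distance of each gene start from that of *Il13* in kb. Bars are 95% counting intervals and crosses mark genes for which no ratio is given. *Il13* lies at 0.113, below *Kif3a*, *Rad50* and *Irf1* at 0.657 to 0.764.

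Of the receptors, those for IFNγ were higher in the RV-Cre library. *Ifngr1* (chr10:19591949-19610229, plus strand) encodes the chain of the IFNγ receptor that binds the cytokine. It had 552 reads, or 40.0 CPM (95% interval 36.7 to 43.5), in the control library and 1277 reads, or 104 CPM (95% interval 98.2 to 110), in the RV-Cre library. The ratio was 2.61 (95% interval 2.36 to 2.89), so that the whole interval lay above 2-fold. Of the 3803 genes in the band from 8 to 10, 1.34% matched or exceeded its log2 ratio of 1.38. *Ifngr2* (chr16:91547059-91564007, plus strand) encodes the second chain, which is needed for signalling. It had 229 reads, or 16.6 CPM, in the control library and 381 reads, or 31.0 CPM, in the RV-Cre library. Its ratio was 1.88 (95% interval 1.59 to 2.22) and its log2 ratio 0.91, just inside the 2-fold limit. The chains differed in the size of the change. There were 2.41 reads of *Ifngr1* for each read of *Ifngr2* in control cells and 3.35 in RV-Cre cells, a change of 1.39-fold (exact 95% interval 1.14 to 1.69). *Jak1*, the kinase that associates with IFNGR1, had 5144 and 11239 reads and a ratio of 2.47, and the reads of *Ifngr1* per read of *Jak1* changed by 1.06-fold (exact 95% interval 0.952 to 1.18). *Jak1* overlaps another annotated gene, *Raver2*, with 301 and 744 reads.

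The receptor for IL-12 pairs *Il12rb2* with *Il12rb1*, a chain that the IL-23 receptor also uses. *Il12rb2* (chr6:67285986-67376293, minus strand) had 17 control reads and 11 RV-Cre reads, with a ratio of 0.73 and a wide interval from 0.309 to 1.65. These counts were too few to show a difference of this size. The gene overlaps *Serbp1* by 3317 bases on the opposite strand, and *Serbp1* had 32258 and 23038 reads. Whether strand was used in counting is not stated, and reads of *Il12rb2* and *Serbp1* may not be separated. *Il12rb1* had 673 reads in control and 140 in RV-Cre cells, a decrease of 4.26-fold (95% interval 3.55 to 5.15). There were 2.53 reads of *Il12rb2* per 100 of *Il12rb1* in control cells and 7.86 in RV-Cre cells, a change of 3.11-fold (exact 95% interval 1.28 to 7.21), but the reads of *Il12rb2* per read of *Serbp1* changed by 0.906-fold (exact 95% interval 0.384 to 2.05), so whether the receptor chains differ in their change cannot be told from these counts. *Il27ra* (chr8:84030286-84042600, minus strand), the specific chain of the IL-27 receptor, had 115 reads, or 8.33 CPM, in the control library and 111 reads, or 9.02 CPM, in the RV-Cre library. Its ratio of 1.09 had an interval from 0.832 to 1.43, which includes 1 and leaves a change of 2-fold outside. *Il27ra* overlaps *Palm3* by 386 bases, a gene with 7 and 12 reads. *Il6st*, which encodes gp130, the chain shared by the receptors for IL-27 and IL-6, had 492 and 572 reads and a ratio of 1.31 (95% interval 1.16 to 1.48).

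*Il4ra* (chr7:125552271-125579474, plus strand) encodes the chain that binds IL-4 and is shared with the receptor for IL-13. It had 3466 reads, or 251 CPM (95% interval 243 to 260), in the control library and 4639 reads, or 377 CPM (95% interval 366 to 388), in the RV-Cre library. The ratio of 1.51 (95% interval 1.45 to 1.58) was beyond counting error and below 2-fold. Its partner for IL-4, the common γ chain *Il2rg*, had 6163 and 5439 reads and a ratio of 0.996 (95% interval 0.96 to 1.03). The reads of *Il4ra* per read of *Il2rg* accordingly went from 0.562 to 0.853, a change of 1.52-fold (exact 95% interval 1.43 to 1.61). Its partner for IL-13, *Il13ra1*, had 23 and 24 reads, and *Il13ra2*, the decoy receptor for IL-13, had 0 and 0. *Il1rl1* (chr1:40404864-40465418, plus strand) encodes ST2, the receptor for IL-33, which marks Th2 cells and a subset of Treg cells. It had 33 reads, or 2.39 CPM, in the control library and 36 reads, or 2.93 CPM, in the RV-Cre library, with a ratio of 1.23 (95% interval 0.746 to 2.04). *Il1rap*, its co-receptor, had 34 and 37 reads and a ratio of 1.23 (95% interval 0.75 to 2.02). The reads of *Il1rl1* per 100 reads of *Il1rap* were 97.1 and 97.3, with an exact 95% interval of the change from 0.49 to 2.05. *Il1rl1* gives rise to membrane-bound and soluble forms, which counts per gene symbol do not separate. Among its neighbours on chromosome 1, *Il18r1*, the IL-18 receptor chain, had 36 and 65 reads and a ratio of 2.04 (95% interval 1.34 to 3.15). *Il1r1*, the signalling receptor for IL-1, had 88 and 24 reads and a log2 ratio of -1.66, while *Il1r2*, its decoy, had 49 and 87 reads and a log2 ratio of 0.99. *Il1rl2*, a receptor of the IL-36 family of cytokines, had 0 and 12 reads and did not reach the minimum. Of the 10 genes listed as neighbours of the cytokine and receptor loci, 9 passed the minimum, with a median log2 ratio of -0.39. Of these 9 genes, 1 was higher and 2 were lower, beside 14.2% and 12.3% of all genes past the minimum.

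**Figure D3:**
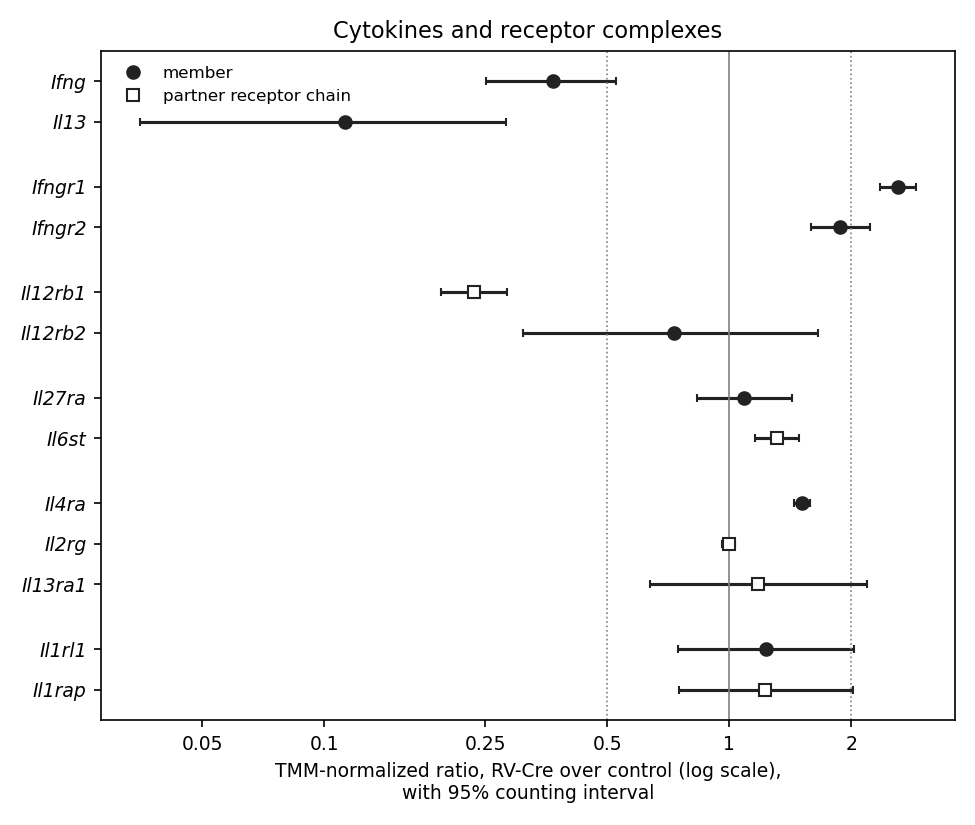
Normalized ratio of RV-Cre over control (log scale) with 95% counting intervals for *Ifng*, *Il13*, the receptor chains among the 10 genes (filled circles) and their partner chains (open squares). Dotted lines mark 2-fold. *Ifngr1* at 2.61 lies wholly above 2, *Il12rb1* at 0.235 wholly below 0.5, and *Il2rg* at 0.996 on the line of no change.

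Of the factors that act on these genes, *Tbx21* was lower and *Gata3* higher with RV-Cre. *Tbx21*, which encodes T-bet, had 1569 control reads and 399 RV-Cre reads, a decrease of 3.48-fold (95% interval 3.12 to 3.9). *Ifng*, its target, was lower as well, with 8.03 reads for each 100 reads of *Tbx21* in control cells and 10.3 in RV-Cre cells, a change of 1.28-fold whose exact 95% interval, 0.862 to 1.87, includes 1. *Stat4*, which transmits the IL-12 signal, had 155 and 138 reads and a ratio of 1.01 (95% interval 0.793 to 1.27), so that *Ifng* per 100 reads of *Stat4* went from 81.3 to 29.7. *Gata3*, the factor of the Th2 programme, had 114 reads in control and 814 in RV-Cre cells, a ratio of 8.06 (95% interval 6.62 to 9.89). *Il13*, its target, was lower. There were 43.9 reads of *Il13* for each 100 reads of *Gata3* in control cells and 0.614 in RV-Cre cells, a change of 71.4-fold downward (exact 95% interval 27.6 to 232). *Stat6*, which transmits the IL-4 signal, had 1222 and 1103 reads and a ratio of 1.02 (95% interval 0.938 to 1.11). *Gata3* overlaps annotated genes that had 0 reads here, and *Stat6* overlaps *Nab2*, with 852 and 671 reads.

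Of 16 other genes of the Th1 pathway, all passed the minimum, 2 being at least 2-fold higher, 3 lower and 11 neither, with a median log2 ratio of 0.21, beside -0.01 over all genes past the minimum. The higher genes were *Jak1*, a kinase that serves many cytokine receptors, and *Il18r1*, the latter only just past the threshold with a log2 ratio of 1.01. The lower genes included *Tbx21* and *Il12rb1*, described above. *Cxcr3*, a chemokine receptor of Th1 cells, had 94 and 48 reads and a log2 ratio of -0.78.

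Of 23 other genes of the Th2 pathway, 19 passed the minimum, 3 being at least 2-fold higher and 5 lower, with a median log2 ratio of 0.03. Besides *Gata3*, the higher genes were *Bhlhe41*, a transcription factor of Th2 cells with 8 and 28 reads and a log2 ratio of 1.85, and *Il17rb*, a chain of the IL-25 receptor with 12 and 26 reads and a log2 ratio of 1.22. The lower genes were *Il24*, *Il10*, *Ccr4*, *Maf* and *Il9*. *Il24*, a cytokine of the IL-10 family, had 71 reads in control and 7 in RV-Cre cells and a log2 ratio of -3.01. *Il10*, the anti-inflammatory cytokine made by many T cell subsets, had 255 and 39 reads and a log2 ratio of -2.51. *Il9*, the cytokine of Th9 cells, had 578 and 226 reads and a log2 ratio of -1.18. *Ccr4*, a chemokine receptor of Th2, Th17 and Treg cells, had 279 and 80 reads and a log2 ratio of -1.62, and *Maf*, which Th17 cells also use, had 6445 and 2509 reads and a log2 ratio of -1.19. *Il3* had 25 and 20 reads. *Il31*, *Csf2*, *Areg* and *Il13ra2* had 0 reads in both libraries.

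Of 24 genes induced by IFNγ, 23 passed the minimum, 0 being at least 2-fold higher and 6 lower, with a median log2 ratio of -0.15. *Cxcl10*, a chemokine that binds CXCR3, had 106 control reads and 19 RV-Cre reads and a log2 ratio of -2.25. *Iigp1*, an immunity-related GTPase, had 2961 and 815 reads and a log2 ratio of -1.69. The other lower genes were *Irgm2*, *Psmb9*, *Irgm1* and *Gbp6*, with log2 ratios of -1.52, -1.32, -1.29 and -1.02. At the other end, *Cxcl9*, a further CXCR3 ligand, had 53 and 93 reads and a log2 ratio of 0.97, and *Irf9* had 811 and 1069 reads and a log2 ratio of 0.57. *Socs1*, the feedback inhibitor of IFNγ signalling, had 1531 and 901 reads and a log2 ratio of -0.59. Many of these genes also respond to type I interferon, the GTPase families hold close paralogs among which reads may be split, and *Cxcl10* overlaps *Art3*, with 11 and 22 reads.

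**Figure D4:**
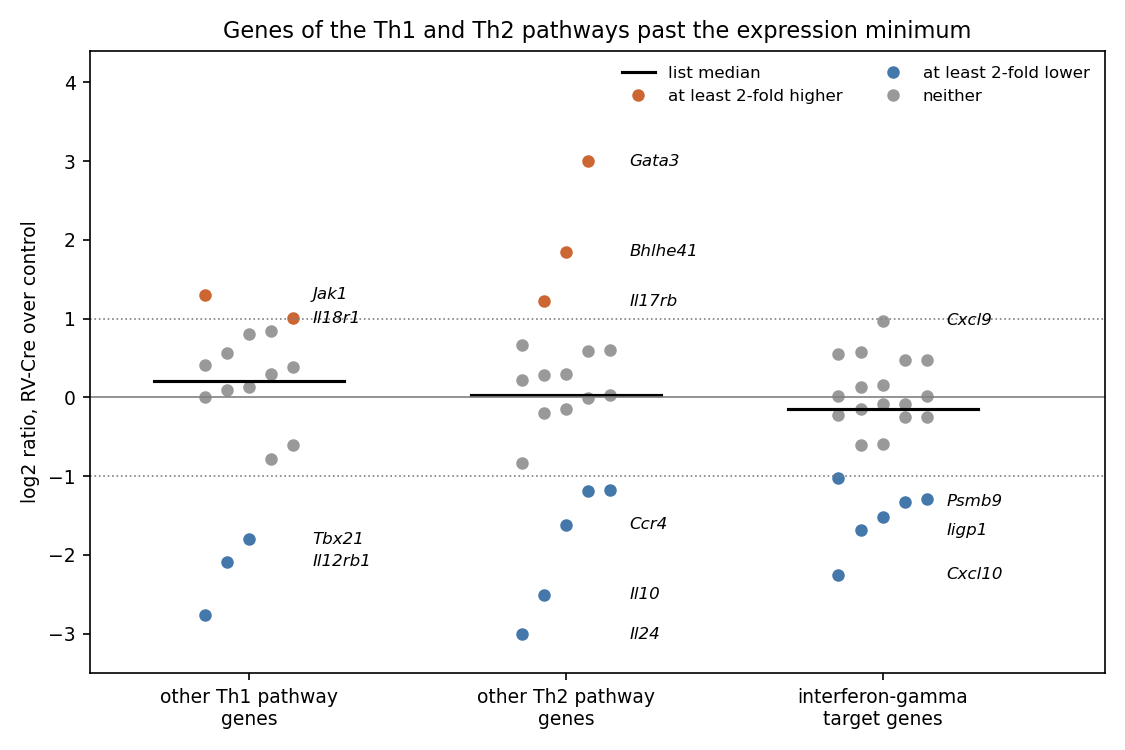
Log2 ratio of RV-Cre over control for the genes past the expression minimum in 3 lists, each point 1 gene and each bar the median of the list. *Gata3* at 3.00 lies above all other points, and *Il24* and *Cxcl10*, the lowest of the Th2 pathway and IFNγ target lists, lie at -3.01 and -2.25.

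IFNγ, IL-4 and IL-13 are made by T cells, as given above. Other cytokines that act on these receptors, or on receptors of the Th1 and Th2 pathway lists, come largely from other cells. Of 8 genes for such cytokines (*Il12a*, *Il12b*, *Il27*, *Ebi3*, *Il18*, *Il33*, *Il25* and *Tslp*), 2 passed the minimum and 0 were at least 2-fold higher or lower, with log2 ratios of 0.78 and 0.02 and a median of 0.40 over those that passed. *Il12b* had 16 and 25 reads, and *Ebi3*, which overlaps other annotated genes, had 58 and 52. *Il12a*, *Il27*, *Il25* and *Tslp* had 0 reads in both libraries.

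Markers of other cell types that can make these cytokines or carry these receptors were followed as well. The 7 markers of CD8 T and NK cells, which also make IFNγ, summed to 89.1 (control) and 125 CPM (RV-Cre), and of the 5 that passed the minimum 2 were higher and 2 lower. *Cd8a* had 322 and 580 reads and *Cd8b1* 122 and 274, while *Klrd1*, an NK cell receptor chain, had 240 and 57 and *Klrk1* 41 and 9. *Nkg7* had 492 and 615 reads (35.7 and 50.0 CPM), with a ratio of 1.41 (95% interval 1.25 to 1.59), below 2-fold. The NK cell genes *Ncr1* (0 and 8 reads) and *Klrb1c* (12 and 0) did not reach the minimum. The part of these cells in the lower *Ifng* was not tested. The 10 markers of mast cells and basophils, which make IL-4 and IL-13 and carry ST2, summed to 9.2 and 12.4 CPM, with 0 of the 2 genes past the minimum at least 2-fold higher or lower. These genes were *Kit*, with 84 and 115 reads (6.09 and 9.35 CPM, ratio 1.54, 95% interval 1.16 to 2.07), and *Hdc*, with 33 and 21. The defining genes of mast cells and basophils *Cpa3*, *Fcer1a*, *Tpsb2* and *Tpsab1* had 0 reads in both libraries. Other markers of this list did have reads without reaching the minimum, among them the basophil gene *Mcpt8* with 2 and 12 (ratio 6.77, 95% interval 1.51 to 62.3), *Ms4a2* with 0 and 4 and *Gata2* with 7 and 0. The part of these cells in the values of *Il13*, *Il4ra* and *Il1rl1* was not tested. The 6 markers of B cells, which carry the receptors for IL-4 and IFNγ, summed to 4.13 and 10.1 CPM, with 3 higher and 0 lower among 5 past the minimum and *Pax5* at 0 reads in both libraries. The 8 markers of myeloid and dendritic cells summed to 11.4 and 18.8 CPM, with 1 higher (*Csf1r*, 16 and 110 reads) and 2 lower (*Lyz2*, 22 and 7, and *Itgax*, 27 and 1) among 6, and with *Adgre1* at 0 and 8 reads. The part of B and myeloid cells in the receptor values was not tested. Beside the counts of the marker lists, the shares over all genes past the minimum were 14.2% higher and 12.3% lower.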

How the data were processed

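The authors deposited 1 table of raw counts per library, reads per gene symbol without normalization, from a QuantSeq 3′ kit and 500 ng of total RNA. Per the submitters' processing notes, bcl2fastq 2.20.0.422, Bowtie2, bedtools and build mm10 were used. Strand setting and read filters are not given in the sources used here. Counts were scaled by TMM (edgeR 4.0.16, R 4.3.3) over all 23282 rows. The 79 rows sharing a symbol were kept apart and left out of lists. No test was run, with 1 library per condition. Intervals are exact Clopper-Pearson 95% intervals (scipy 1.17.1) on the split of reads, or conditional exact intervals of an odds ratio for pairs of genes. Reads are not independent molecules, so intervals and the limit of 3 reads cover counting error only. Reads start near the 3′ end and were not divided by length, so only changes between libraries are compared. The functions were tested on simulated data. Gene lists and pairs were chosen with earlier results of these data known. The genes named are the 10 genes, *Ptk2*, *Tbx21*, *Stat4*, *Gata3*, *Stat6* and the 2 highest and 2 lowest genes of each list, other names having been chosen after their values were seen. Some genes under this rule are not reported here. Positions are from RefSeq GRCm38.p6, the assembly of mm10, and strands from GENCODE M21. Symbols or synonyms matched 99.5% of rows. Alternatives were other scalings (library totals with and without *Rn45s*, DESeq2 1.42.0, median centring, quantile, *Gapdh*), pseudocounts, minimums and fold thresholds.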

Additional observations from a re-analysis of the deposited data

How the results depend on the processing

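No paired analysis was possible because 1 library stood for each condition. Of the 31 named genes with reads, none that was at least 2-fold different changed direction under the 8 scalings and pseudocounts, and 17 of 248 values lay outside the counting interval, most of them with scaling to *Gapdh*, which itself had a log2 ratio of -0.42. *Ifng* ranged from -1.47 to -1.01, *Il13* from -3.33 to -1.90, *Ifngr1* from 1.37 to 1.80, *Ifngr2* from 0.88 to 1.32 and *Il4ra* from 0.58 to 1.01. *Stat4* and *Ebi3* lay on both sides of 0, and *Il12rb2* reached -1.05 with quantile normalization. The IFNγ target median became 0.27 with *Gapdh*. Depth limits *Il4*, *Il5*, *Il12rb2* and the RV-Cre value of *Il13*.

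Counts that moved by over 1.5 times were these. Of the 10 genes, 1 was higher, against 2 with quantile normalization (adding *Ifngr2*), 3 with *Gapdh* (adding *Ifngr2* and *Il4ra*), 3 at a fold of 1.5 and 0 at a fold of 3. Of them 2 were lower, against 1 with a log2 minimum of 6, 1 with 4 needed in each library and 1 at a fold of 3. Th1 pathway genes went from 2 higher to 1 with library totals, DESeq2 size factors, quantile normalization and a pseudocount of 10, to 4 with *Gapdh* and at a fold of 1.5, and to 0 at a fold of 3. Those lower went from 3 to 5 at a fold of 1.5. Th2 pathway genes went from 3 higher to 6 with *Gapdh* and at a fold of 1.5, and to 1 with a minimum of 6 or with 4 needed in each library. Those lower went from 5 to 3 with *Gapdh* and at a fold of 3. IFNγ targets went from 0 higher to 1 with totals without *Rn45s*, with *Gapdh* and at a fold of 1.5, and from 6 lower to 3 with *Gapdh* and 2 at a fold of 3. For the scalings and pseudocounts the cause was not tested, while the thresholds by construction admit other genes.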
